A study of Homo sapiens with 3 samples.

Results

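The genes described here encode the subunits of the 3 nuclear RNA polymerases and of Mediator. They are the rows of the deposited gene tables on reference sequences without _ in their name, and whose gene name is POLR1, POLR2 or POLR3 followed by letters and, in some cases, a number, or MED followed by a number and, in some cases, L. A total of 61 of 43389 gene rows met this rule, of which 31 are RNA polymerase genes and 30 are Mediator genes. Of the 61, RefSeq lists 60 as protein-coding and POLR2J4 as a transcribed pseudogene. The samples were 3 RNA-seq libraries labelled HepG2, the name of an established line derived from a human liver cancer. They were also labelled wild type and named as replicates 1 to 3. Their labels name no treatment, and they form 1 condition, so no comparison between conditions was made. Nothing in the labels states that the replicates were separate cultures, so the spread between them may be technical.

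RNA polymerase I transcribes the large ribosomal RNA precursor, RNA polymerase II transcribes mRNA and many noncoding RNAs, and RNA polymerase III transcribes tRNA, the small ribosomal RNA and other short RNAs. Each enzyme is built around a pair of large catalytic subunits, with smaller subunits that are particular to it or shared with the others. Mediator is a large assembly that joins RNA polymerase II at promoters to DNA-bound activators. Its head, middle and tail modules are held together by a scaffold subunit, and a separate kinase module binds it reversibly.

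Levels are given in TPM, a unit scaled for gene length whose sum is equal in all libraries, which lets genes be compared with each other. At least 1 TPM in every library was reached by 60 of the 61 genes, against 30.7% of all rows and 59.5% of protein-coding rows. At least 10 TPM in every library was reached by 54 of the 61, against 18.8% of all rows and 40.3% of protein-coding rows. The median of the 61 mean levels was 28.9 TPM. With the median taken in each library, it was 30.1, 28.4 and 28.3 TPM in replicates 1, 2 and 3. Over the 13785 genes averaging 1 TPM or more, the median was 15.4 TPM, and 47 of the 61 genes lay above it. The polymerase genes had a median of 37.6 TPM and the Mediator genes a median of 23.5 TPM. The highest mean was 224 TPM, for MED10, and the lowest was 0.0485 TPM, for MED12L.

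The number of reads is unknown, because the tables hold no read counts, and counting error was not computed. Relative depth, taken as the highest ratio of coverage to FPKM, was 1.16 in replicate 1 and 1.12 in replicate 2 with replicate 3 set to 1. The label was checked against 18 genes for proteins that hepatocytes secrete, a set that HepG2 cells are known to express. All but VTN and RBP4 stayed below 1 TPM in each library, and 11 of the 18, including ALB, were listed at 0 in all 3. This is not the pattern known for HepG2, and the identity of the cells was not tested. The values below are therefore given for libraries that are HepG2 by label only.

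Among the 7 genes particular to RNA polymerase II, POLR2A was the highest. It encodes the largest subunit, which carries the repeated C-terminal domain that is phosphorylated during transcription, and its row covers the plus strand of chromosome 17 in GRCh38 between 7484366 and 7514616. POLR2A had 184, 181 and 181 TPM in replicates 1, 2 and 3, or 182 ± 1.84 TPM (SD, n = 3), with a coefficient of variation of 1.01%. This level exceeded 94.4% of the genes averaging 1 TPM or more. POLR2B encodes the second catalytic subunit, and it had 64.4, 54.0 and 57.0 TPM in the same libraries, or 58.5 ± 5.35 TPM (SD, n = 3). POLR2A was therefore 3.13 ± 0.251 times as high as POLR2B (SD, n = 3), and the values of the pair did not overlap in any library.

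The catalytic pairs of the other polymerases were closer in level by TPM. The ratio of POLR1A to POLR1B was 0.888 ± 0.0157, and that of POLR3A to POLR3B was 1.24 ± 0.0240 (SD, n = 3). By coverage, which is the mean read depth over a gene, the ratio of POLR2A to POLR2B was 3.48 ± 0.273 and that of POLR1A to POLR1B 0.899 ± 0.0154 (SD, n = 3). The ratio of POLR3A to POLR3B rose to 3.56 ± 0.0718 by coverage (SD, n = 3). These 3 ratios were chosen after the values were seen and carry no test.

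The other genes of RNA polymerase II ranged from 27.6 to 120 TPM. POLR2G and POLR2D encode the partners of the stalk, which contacts the emerging RNA. POLR2G had 127, 116 and 118 TPM in replicates 1, 2 and 3, and POLR2D had 28.6, 27.6 and 26.7 TPM. The stalk partners thus differed more than the spread of either. POLR2C, which pairs with POLR2J in the assembly platform of the enzyme, had 99.4 ± 2.58 TPM (SD, n = 3). POLR2I, a small zinc-binding subunit involved in fidelity, had 83.8, 97.7 and 102 TPM in replicates 1, 2 and 3, with the lowest value in replicate 1. POLR2M, a protein that associates with the polymerase without being a core subunit, had 29.2 ± 1.54 TPM (SD, n = 3). Its row of 11037 bp lies wholly within that of GCOM1 on the same strand, which was listed at a mean of 0.369 TPM.

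**Figure D1:**
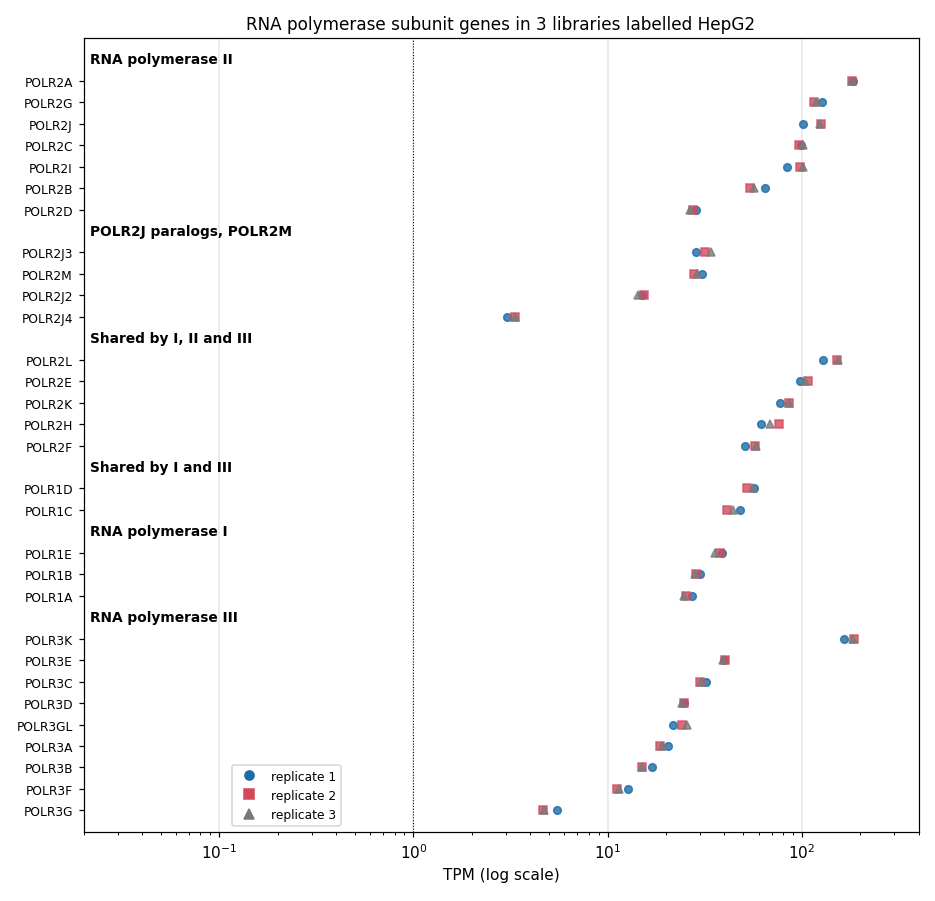
TPM of 30 of the 31 RNA polymerase genes on a log scale, with 1 point per library and genes grouped by the enzymes that hold their product. POLR2A and POLR3K are the highest, and all genes shown but POLR2J4 and POLR3G lie above 10 TPM in every library.

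POLR2J belongs to a family of near-identical copies on chromosome 7, and these copies limit what its level means. POLR2J had 101, 125 and 125 TPM in replicates 1, 2 and 3, or 117 ± 13.8 TPM (SD, n = 3). POLR2J3 had 28.5, 31.6 and 34.2 TPM, POLR2J2 had 15.1, 15.4 and 14.4 TPM, and the pseudogene POLR2J4 had 3.04, 3.32 and 3.36 TPM. POLR2J lay above POLR2J3 and POLR2J2 in every library, and POLR2J4 lay below them all. The last 60 coding bases of the 3 coding genes are shown, because most of the bases that tell POLR2J from POLR2J2 and POLR2J3 lie there. They were read from GENCODE v44 transcripts on the minus strand of chromosome 7 in GRCh38. POLR2J2 and POLR2J3 do not differ over this stretch. The transcript of POLR2J spans 102473128 to 102478922, that of POLR2J2 spans 102666046 to 102671663 and that of POLR2J3 spans 102566966 to 102572583. The stop codon is not included, and capitals mark bases that differ from POLR2J or have no counterpart in it:
POLR2J: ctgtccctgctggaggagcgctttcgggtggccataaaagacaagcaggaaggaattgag
POLR2J2: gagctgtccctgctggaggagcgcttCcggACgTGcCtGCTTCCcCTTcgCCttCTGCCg
POLR2J3: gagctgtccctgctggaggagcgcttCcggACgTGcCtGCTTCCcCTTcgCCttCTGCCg

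The coding sequence of POLR2J has 351 bases, and those of POLR2J2 and POLR2J3 have 345 bases each. Over 342 aligned bases, POLR2J differed from POLR2J2 at 21 and from POLR2J3 at 19. All but 2 of these bases of POLR2J2 and all of those of POLR2J3 lie in the stretch shown. POLR2J also holds an extra aag before this stretch, absent from POLR2J2 and POLR2J3, which the capitals do not mark. POLR2J2 and POLR2J3 differed from each other at 2 of 345 bases. Of all windows of 100 bases along the POLR2J3 transcript, 73.2% were also found in the POLR2J2 transcript and 41.9% in that of POLR2J. A read that lies wholly within such a shared window cannot be assigned to a gene by its sequence. The paper's methods give paired-end reads longer than these windows, which can reach bases that differ. These shares are therefore not the share of ambiguous reads. How many reads could be assigned was not tested, so the levels of the family are uncertain. The deposited rows of POLR2J2 and POLR2J3 span 34982 and 34703 bp, and each also covers a neighbouring UPK3BL gene.

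A total of 5 genes encode subunits that all 3 polymerases share. Their median was 82.9 TPM, and the 5 means ranged 2.61-fold, from 55.6 TPM for POLR2F to 145 TPM for POLR2L. By coverage the ratio of POLR2L to POLR2F was 22.2 ± 0.576 (SD, n = 3). POLR2L, which encodes a protein of 67 amino acids, had 129, 152 and 155 TPM in replicates 1, 2 and 3. POLR2E had 97.7, 107 and 104 TPM, and POLR2K had 76.9, 85.8 and 86.0 TPM. POLR2H had 61.6, 76.1 and 68.8 TPM, and POLR2F had 50.8, 57.8 and 58.1 TPM. Each of these 5 genes had its lowest value in replicate 1. The row of POLR2F spans 88253 bp and runs across SOX10, which lies on the opposite strand and was listed at a mean of 0 TPM.

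POLR1C and POLR1D are shared by RNA polymerases I and III, where they take the places that POLR2C and POLR2J hold in RNA polymerase II. POLR1C had 48.2, 41.3 and 44.6 TPM and POLR1D had 56.6, 52.1 and 55.9 TPM in replicates 1, 2 and 3. POLR2C was 2.23 ± 0.142 times as high as POLR1C, and POLR2J was 2.14 ± 0.321 times as high as POLR1D (SD, n = 3). By coverage these ratios were larger, at 4.47 ± 0.270 and 13.4 ± 1.94 (SD, n = 3). These ratios were chosen after the values were seen. The row of POLR1C shares 40075 bp, or 88.3% of its span, with XPO5 on the opposite strand, which had a mean of 24.5 TPM.

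The genes particular to RNA polymerase I lay close together. POLR1A, which encodes the largest subunit, had 27.2, 25.3 and 24.7 TPM, POLR1B had 30.1, 28.4 and 28.3 TPM, and POLR1E had 38.8, 38.1 and 35.9 TPM in replicates 1, 2 and 3. A further 3 subunits stand in the tables under older symbols that the rule does not match. TWISTNB, now POLR1F and part of the stalk, had a mean of 23.9 TPM. CD3EAP, now POLR1G and the partner of POLR1E, had 22.0 TPM, and ZNRD1, now POLR1H and a small zinc-binding subunit, had 32.9 TPM. With these added, the genes of RNA polymerase I ranged from 22.0 to 37.6 TPM.

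The 10 genes particular to RNA polymerase III had a median of 24.2 TPM and spanned a wider range. POLR3K stood apart with 166, 186 and 183 TPM in replicates 1, 2 and 3, and its product is a small zinc-binding subunit that acts in termination. It was 4.46 ± 0.266 times as high as the next gene, POLR3E, which had 39.9 ± 0.504 TPM (SD, n = 3), and 7.39 ± 0.375 times as high by coverage. Of the largest subunits, POLR3A had 20.6, 18.6 and 19.0 TPM and POLR3B had 16.9, 15.1 and 15.1 TPM in replicates 1, 2 and 3. POLR3D, the partner of POLR3E, had 24.6 TPM. POLR3C and POLR3F belong to the subcomplex that acts in initiation, and they had 30.9 and 11.8 TPM.

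The third place in the initiation subcomplex is filled by either POLR3G or POLR3GL, paralogs of which POLR3G is known for its high level in pluripotent cells and POLR3GL for its presence in most differentiated tissues. POLR3G had 5.49, 4.68 and 4.68 TPM, and POLR3GL had 21.8, 24.1 and 25.8 TPM in replicates 1, 2 and 3. POLR3GL was higher in 3 of 3 libraries, and the log2 ratio of POLR3G to POLR3GL was -2.06 ± 0.22 (SD, n = 3) on the log2(TPM + 1) scale. The direction held by coverage, where the log2 ratio was -1.17. The coding sequences of this pair were 62.3% identical, and 0% of the windows of 100 bases were shared between the transcripts, so reads of that length could not match both. POLR3G lies on chromosome 5 from 90473929 to 90514557 and POLR3GL on chromosome 1 from 145959037 to 145978848.

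The Mediator genes covered the whole range from the highest to the lowest of the 61. In the head module, which contacts the polymerase, the 7 genes had a median of 26.1 TPM and ranged 3.32-fold. MED8 was highest with 46.0, 45.9 and 42.2 TPM in replicates 1, 2 and 3, next to MED22 with 44.2 ± 1.85 TPM (SD, n = 3). MED18 was lowest with 13.7, 14.2 and 12.5 TPM. MED17, the central head subunit, had 28.9 TPM, MED11 had 26.1 TPM and MED20 had 17.7 TPM. MED6 had 24.8 ± 0.0982 TPM (SD, n = 3), the smallest coefficient of variation of the 61 genes at 0.395%. MED14, the scaffold that joins the modules, had 34.1, 31.6 and 30.4 TPM.

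The middle module held the gene with the highest level. MED10, which occupies the minus strand of chromosome 5 between 6371874 and 6378547, had 216, 230 and 227 TPM in replicates 1, 2 and 3. It was above POLR2A in every library, by 1.23 ± 0.0498 times (SD, n = 3). The next gene of the module, MED19, had 44.4 ± 2.73 TPM (SD, n = 3), so that MED10 was 5.06 ± 0.302 times as high (SD, n = 3). MED1, which binds nuclear receptors, had 28.6 TPM, and MED26, which contacts elongation factors, had 11.2 TPM. MED4 had 24.0, 25.2 and 25.9 TPM in replicates 1, 2 and 3, MED21 had 22.1 TPM, and MED31 and MED9 had 14.7 and 13.3 TPM. MED7 was lowest in the module with 10.4, 9.52 and 9.19 TPM.

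The 9 tail genes, whose products receive most contacts from activators, had a median of 30.9 TPM. By TPM the highest was MED27 with 87.2, 77.4 and 85.3 TPM in replicates 1, 2 and 3, followed by MED15, a target of lipid-regulating activators, with 55.3, 53.7 and 47.6 TPM. MED24 had 41.6 ± 0.414 TPM, MED25 had 36.0 ± 0.192 TPM and MED29 had 30.9 ± 2.14 TPM (SD, n = 3). MED16 had 12.0 TPM and MED30 had 9.78 TPM. MED23 had 8.58 ± 0.510 TPM (SD, n = 3), and MED28 was lowest with 8.31, 7.70 and 7.96 TPM in replicates 1, 2 and 3. The order was not the same by mean coverage, where MED29 and MED25 were highest at 185 and 178. MED27, MED15 and MED24 had a coverage of 30.3, 38.1 and 41.5. These lay below MED23 at 46.2 and MED28 at 47.7.

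**Figure D2:**
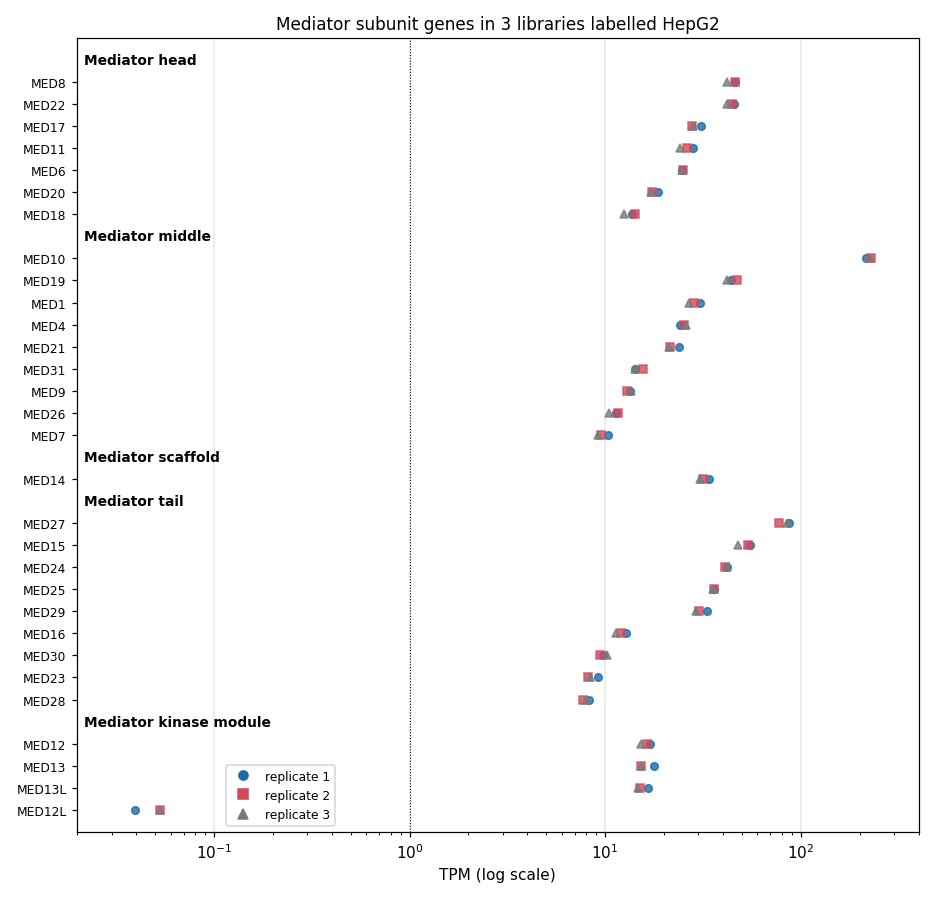
TPM of the 30 Mediator genes on a log scale, with 1 point per library and genes grouped by module. MED10 lies above 200 TPM, while MED12L lies near 0.05 TPM and far to the left of the dotted line at 1 TPM.

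The kinase module holds CDK8 or CDK19, cyclin C, MED12 or MED12L, and MED13 or MED13L. MED12, which activates the kinase, had 16.9, 16.3 and 15.3 TPM in replicates 1, 2 and 3. MED12L was listed at 0.0393, 0.0533 and 0.0528 TPM in the same libraries, the only 1 of the 61 genes below 1 TPM. MED13, which links the module to the rest of Mediator, had 17.7, 15.2 and 15.2 TPM, and MED13L had 16.6, 15.0 and 14.8 TPM. The ratio of MED12 to MED13 was 1.01 ± 0.0587 by TPM and 1.27 ± 0.0565 by coverage (SD, n = 3), so the order of the pair was not the same by both measures in every library. CDK8 had 13.8, 11.9 and 11.4 TPM, and CDK19 had 3.23, 2.87 and 2.68 TPM. CCNC, which encodes cyclin C, had 41.0 ± 2.60 TPM (SD, n = 3) and was 3.32 ± 0.160 times as high as CDK8 (SD, n = 3).

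MED12L occupies 351013 bp on the plus strand of chromosome 3, between 151085665 and 151436677, and its row shares bases with 6 rows on the opposite strand, all at a mean of 0.130 TPM or less. MED12L and MED12 encode proteins of 2180 and 2177 amino acids. Their coding sequences were 67.0% identical over the aligned bases, and 0% of windows of 100 bases were shared. MED13 and MED13L were 65.1% identical and CDK8 and CDK19 75.8% identical, also with 0% of windows shared. Within these 3 pairs, reads that span such a window could be assigned to 1 gene.

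Within each library, 11 pairs were compared as log2 ratios after adding 1 to each TPM. They hold paralogs, equivalent subunits of different polymerases, and POLR1D with POLR1C, which fill different places in the same enzymes. For all 11 pairs the higher gene was the same in 3 of 3 libraries. The log2 ratio was 4.03 ± 0.08 for MED12 to MED12L, 1.77 ± 0.04 for CDK8 to CDK19 and 0.05 ± 0.04 for MED13 to MED13L (SD, n = 3). MED12L lay far below the pseudocount of 1 in every library, so its ratio and SD mostly follow the level of MED12. Without the pseudocount, MED12 was 430, 306 and 289 times as high as MED12L in replicates 1, 2 and 3. POLR2A exceeded POLR1A by 2.78 ± 0.05 and POLR3A by 3.17 ± 0.06 (SD, n = 3). POLR2B exceeded POLR1B by 0.99 ± 0.09 and POLR3B by 1.83 ± 0.05 (SD, n = 3). POLR2J exceeded POLR2J2 by 2.88 ± 0.19 and POLR2J3 by 1.86 ± 0.08, and POLR1D exceeded POLR1C by 0.29 ± 0.05 (SD, n = 3). Flipping the signs of the 3 ratios in an exact permutation test, two-sided, gave p = 0.25 for each pair and 0.25 after Benjamini-Hochberg adjustment over the 11 pairs, the lowest value that this test can reach with 3 libraries. By coverage the ratio reversed for MED13 to MED13L, to -0.22, and for POLR1D to POLR1C, to -2.07. It rose to 3.23 for POLR2B to POLR3B, to 3.39 for POLR2J to POLR2J3 and to 6.38 for MED12 to MED12L, and was 2.19 for POLR2J to POLR2J2. The ratio of MED12 to MED12L depends on the pseudocount by coverage too, since the coverage of MED12L averaged 0.163.

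**Figure D3:**
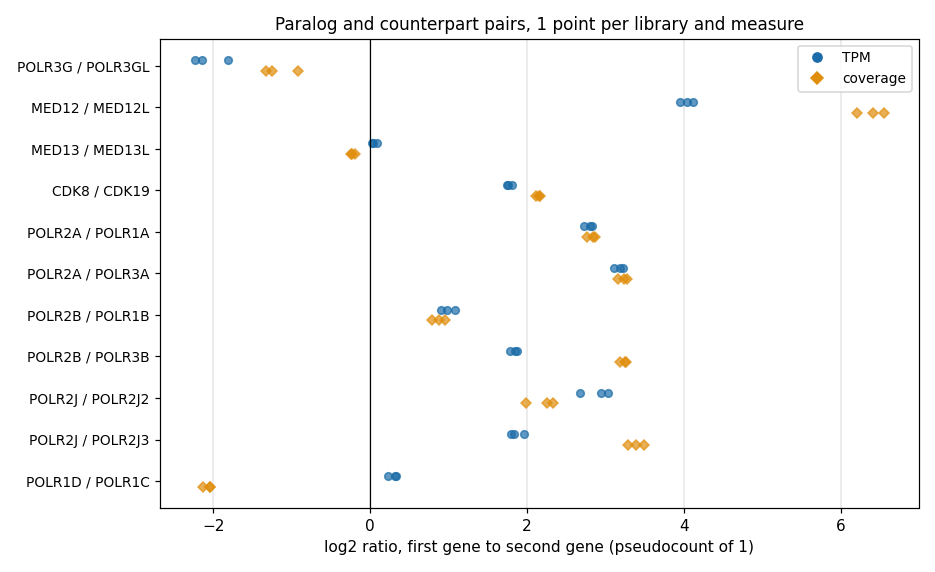
Log2 ratio of the first to the second gene of 11 pairs, with a pseudocount of 1, by TPM (circles) and by coverage (diamonds), with 1 point per library. The line at 0 marks equal levels, and only MED13 to MED13L and POLR1D to POLR1C lie on opposite sides of it by the different measures.

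TPM and coverage placed most of the 61 genes alike, but not all. When the ratio of coverage to FPKM was divided by the highest ratio of the library, it was above 0.99 for 19 of the 26 genes with 1 curated RefSeq transcript. It was above 0.99 for 2 of the 35 genes with more transcripts, whose median was 0.772, and below 0.5 for 11 of them. The same shares over all genes were not computed. The relative ratio was lowest for MED27 at 0.0610, POLR1D at 0.0943 and POLR3GL at 0.104. The percentile of MED27 was 86.7 by TPM and 38.2 by coverage, that of POLR1D was 80.1 and 38.6, and that of POLR3GL was 61.4 and 24.2. MED15, MED24 and POLR2F moved in the same way. By coverage MED27 fell below MED15, with a ratio of 0.798 ± 0.0464, against 1.60 ± 0.176 by TPM (SD, n = 3). MED10, POLR2A, POLR3K, POLR2L and POLR2G held ranks 1 to 5 among the 61 genes by both measures. The part that multiple transcripts play in these differences was not tested.

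**Figure D4:**
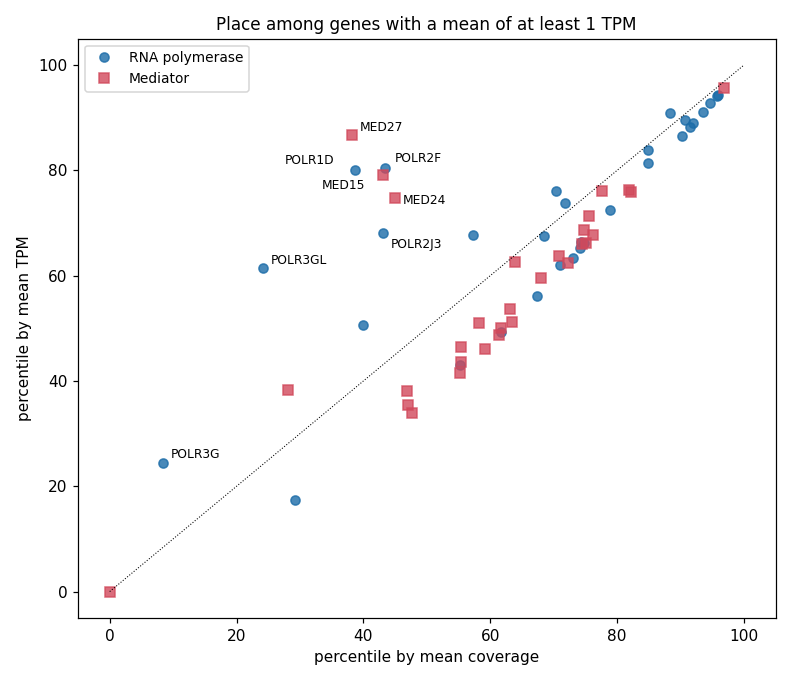
Percentile by mean TPM against percentile by mean coverage for the 61 genes, both among genes averaging 1 TPM or more, with a dotted line where both are equal. Most genes lie near the line, while MED27, POLR1D, MED15, POLR2F, MED24, POLR2J3 and POLR3GL lie far above it.

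The rows of 32 of the 61 genes shared bases with another row. For 9 of them the other row had a mean of at least 10 TPM, in all 9 cases on the opposite strand. The same shares over all gene rows were not computed, so these counts are not a trait of the 61 genes. POLR2B shared 390 bp with IGFBP7 at 128 TPM, MED31 shared 1231 bp with TXNDC17 at 52.7 TPM, and POLR2E shared 1258 bp with ARHGAP45 at 20.8 TPM. Whether the reads were assigned by strand is not given in the sources used here. Reads of such shared bases may therefore not have been told apart.

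Variation between the libraries was small. The 54 genes averaging 10 TPM or more had a median coefficient of variation of 5.44%, against 4.88% for all 8435 such genes. The range of log2(TPM + 1) over the libraries was above 1 for 0 of the 54, against 0.356% of all such genes. The largest range of the 54 was 0.31, for POLR2J, followed by 0.30 for POLR2H, 0.28 for POLR2I, 0.26 for POLR2L and 0.26 for POLR2J3. In all 5, replicate 1 had the lowest value.

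Replicate 1 stood below both other libraries for 14 of the 54 genes, against 19.6% of all genes at that level, and above both for 30, against 62.5%. The genes that were lowest there encode small proteins. Of the 31 genes with a coding sequence of up to 978 bases, 14 were lowest and 11 were highest in replicate 1. Of the 18 with a coding sequence over 1791 bases, 0 were lowest and 15 were highest. The same order was present over all coding genes averaging 10 TPM or more. Of these, replicate 1 was lowest for 32.5% of the short, 15.3% of the middle and 7.71% of the long group. It was highest for 47.1%, 66.1% and 78.6% of these groups. The median difference of replicate 1 from the mean of the others on the log2(TPM + 1) scale was 0.02, 0.07 and 0.10 in these groups. Replicate 1 also had the highest relative depth, and the part of RNA quality or library preparation in this shift was not tested.

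**Figure D5:**
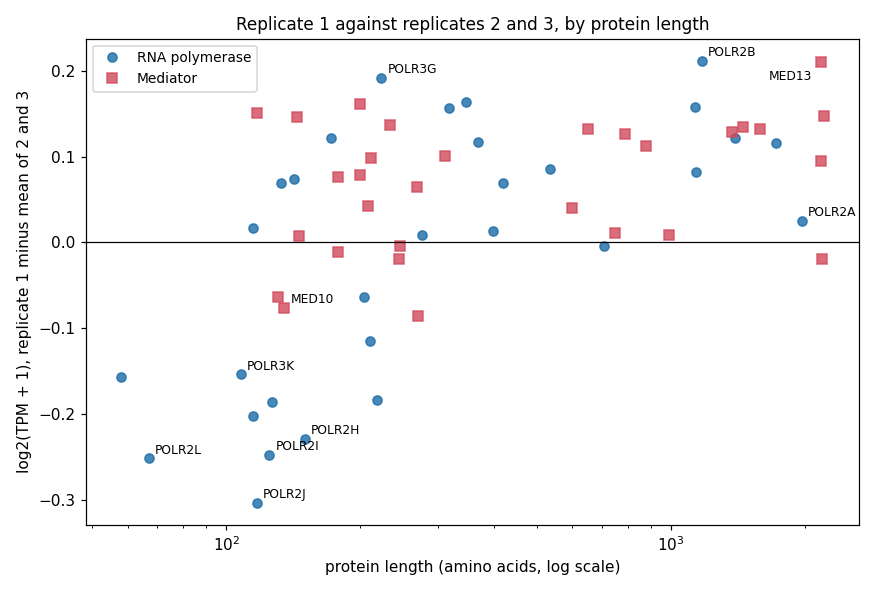
Difference in log2(TPM + 1) between replicate 1 and the mean of replicates 2 and 3 against protein length on a log scale, for the 60 coding genes. Genes below -0.1 all encode proteins of fewer than 250 amino acids, with POLR2J lowest, and long proteins such as POLR2B and MED13 lie above 0.

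Level and protein length were weakly related across the genes. Pearson's r of log2 mean TPM and log2 protein length was -0.336 and Spearman's rho -0.275 over 60 genes, which share libraries and are not independent. Over all 11391 coding genes averaging 1 TPM or more, r was -0.213. With the same limit, which leaves out MED12L, r was -0.245 over 59 of the 60 genes. The 19 genes for proteins under 200 amino acids had a median of 54.9 TPM, and the 13 for proteins of at least 1000 amino acids had a median of 19.4 TPM. The polymerase genes had an r of -0.264, which became -0.432 without POLR2A, a long and highly expressed gene. The 29 Mediator genes averaging 1 TPM or more had an r of -0.116 but a rho of 0.0461, so their ranks showed no negative trend. Spearman's rho was -0.338 for the polymerase genes and -0.481 without POLR2A.

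Other genes of the transcription machinery were examined from lists written with earlier results of these data known. At least 1 TPM in every library was reached by all 31 listed general factors of RNA polymerase II, all 17 elongation factors, all 6 factors of RNA polymerase I, all 16 of RNA polymerase III and all 6 assembly factors. The general factors had a median of 27.3 TPM, from 2.47 TPM for TAF3 to 171 TPM for TAF9. The elongation factors had a median of 58.6 TPM, from 8.35 TPM for CCNT2 to 168 TPM for NELFCD, a subunit of the pausing factor NELF. The factors of RNA polymerase I had a median of 41.7 TPM, from 5.57 TPM for TAF1B to 124 TPM for TAF1D. Those of RNA polymerase III had a median of 29.3 TPM, from 8.17 TPM for SNAPC1 to 119 TPM for GTF3C5, and the assembly factors ranged from 9.26 TPM for RPAP2 to 44.9 TPM for GPN1. POLRMT, the single-subunit RNA polymerase of mitochondria, had 57.6 ± 1.54 TPM (SD, n = 3), and POLR2A was 3.17 ± 0.0815 times as high.

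Promoters of 43 of the 61 genes were matched in RefSeq sequences of GRCh38.p14, each covering 250 bases before to 50 bases after the start of the gene. Both strands were searched for 6 motifs. The shares were set beside those of 6360 protein-coding genes with at least 10 TPM in every library. The 43 were not held to this limit, and they include MED12L and MED7, which did not reach it. The YY1 motif, whose 11 letters are the capitals in the first sequence below, was present in 11.6% of the 43 promoters, against 2.78% of the expressed coding genes. The NRF1 motif, which is GCGC, any base and TGCGC, was present in 25.6%, against 13.8%, and the ETS motif CCGGAA in 48.8%, against 34.0%. The GC box GGGCGG was present in 67.4% against 73.4%, the CCAAT box CCAAT in 27.9% against 37.6%, and the TATA box TATAAA in 6.98% against 4.78%. Binding of these factors was not measured.

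The 5 promoters with the YY1 motif are shown with 9 bases on each side, because this motif had the largest ratio of the shares. The motif is in capitals, and each sequence is written on the strand of the gene. Counted from the start in the RefSeq promoter table, which lies downstream of the start of the deposited row for these 3 genes, the motif begins at base 16 in MED1, 23 in MED16 and 19 in POLR1C, and in POLR1C its ATG is the annotated start codon. In MED18 it lies on the opposite strand, and in MED25 it lies near the far end of the window. The pieces are chr17:39451229-39451257 (minus strand) for MED1, chr19:893146-893174 (minus strand) for MED16, chr1:28328871-28328899 (plus strand) for MED18, chr19:49818040-49818068 (plus strand) for MED25 and chr6:43517098-43517126 (plus strand) for POLR1C:
MED1: ccgttggggAAGATGGCGGCggcctcgag
MED16: ttaccgaggAAGATGGCGGCgccagaccc
MED18: ccaaaggagGCCGCCATCTTtcatacagc
MED25: ccccgctcaAAGATGGCGGCtgactgagc
POLR1C: gagagattgAAGATGGCGGCttctcaggc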

How the data were processed

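The series holds RNA-seq of 3 wild-type HepG2 libraries, by their labels, in 1 condition. Per the study's methods and the submitters' processing notes, the reads were cleaned with FastQC 0.11.8 and Trim Galore 0.6.2 and aligned by STAR 2.6.1a against GRCh38, and StringTie is also named. The annotation and strand setting are not given in the sources used here. The authors deposited 1 gene table per library. The deposited coverage is a signal of mean read depth that is not scaled for library size. The deposited FPKM values are scaled for length and library size, and the deposited TPM values are set to the same total in each library.

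Rows were joined by gene ID, name, reference, strand and coordinates. TPM was used as deposited, with a pseudocount of 1 on the log2 scale. TRNC, a mitochondrial tRNA gene, took 16.9% to 17.2% of all TPM, which lowers the TPM of all other genes. The members, the lists and the 11 pairs were chosen with earlier results of these data known. Any member could be named, except that 1 is included in the counts and medians but its own values are not reported here. Values in each library were given for the largest and the shared subunits, the paralog pairs, the extremes of each class, members below 1 TPM and the 5 with the largest range. The rule also named members with overlapping rows, which are given by counts and examples, and lists were given by counts and extremes. TWISTNB, CD3EAP, ZNRD1, the MED6, MED4 and POLR2G values, the overlap examples and the ratios described without a test were chosen after values were seen. Pairs were tested by exact permutation of signs, two-sided, with Benjamini-Hochberg adjustment. Protein lengths and coding sequences came from MANE Select transcripts of GENCODE v44, or the Ensembl canonical transcript where there was none. Coding sequences were compared by global alignment. Motifs were read from RefSeq promoters. The call of a log2 range above 1 was tested on simulated data, and the sign permutation and the adjustment on known inputs. The other calculations were not tested in this way. Alternatives left out each replicate in turn, changed the pseudocount or the TPM limits, put FPKM or coverage in place of TPM, or used 1 of 3 other scalings. Python 3.11.15, numpy 2.4.6, pandas 2.3.3, scipy 1.17.1, Biopython 1.88 and matplotlib 3.10.9 were used.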

Additional observations from a re-analysis of the deposited data

How the results depend on the processing

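No paired analysis was possible because all 3 libraries belong to a single group, and the within-library ratios pair genes rather than groups of samples. The count of 60 genes with at least 1 TPM in every library stayed at 60 without each replicate, under the 3 other scalings and with a minimum of 0.1 TPM, and was 54 with a minimum of 10 TPM. No gene reached a log2 range over 1 under any alternative run. The median of the 61 genes moved from 28.9 TPM to 36.2 TPM when mitochondrially encoded genes were left out of the scaling and to 34.8 TPM when TRNC was given the FPKM implied by its coverage. The medians of all 11 subunit classes moved by more than their replicate spread under both settings, and 1 of the 11 did so without each replicate in turn. Both settings multiply all of the 61 genes in a library by a common factor. All classes therefore rise together, and the order of the genes within a library is unchanged. Pearson's r of level and protein length moved from -0.336 to -0.249 by coverage and to -0.245 among genes averaging 1 TPM or more, which leaves out MED12L. By coverage the log2 ratio reversed to -0.22 for MED13 to MED13L and to -2.07 for POLR1D to POLR1C, and the cause was not tested. The other 9 ratios kept their direction by coverage, the only alternative run for them that could have reversed it. Leaving out a replicate could not reverse a ratio, because all 3 libraries agreed. A pseudocount of 0.1 and FPKM could not either, because they keep the order of the genes within each library. The ratio of MED12 to MED12L ranged from 3.09 to 6.77 over these alternatives, the highest with a pseudocount of 0.1. With 3 libraries no ratio could reach a p below 0.25, and leaving out a library can only raise that limit. The unknown number of reads limits every low value, MED12L first.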
